A study of Mus musculus with 32 samples.

Results

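The genes described are 7 that mark the two-cell-like state of mouse embryonic stem cells: BB287469, Zscan4c, Zscan4d, Zscan4f, Tcstv1, Tcstv3 and Zfp352. They are 7 of 31053 genes in the files, and 6 of them, all but Zscan4f, passed the filter on low counts that left 15280 genes for testing. They were chosen by name as known genes of this state, with earlier results of these data known, and BB287469 was chosen on its strong rise upon induction at day 0. The day 0 values of the members in induced against uninduced cells are therefore given as a description with no test. In the other comparisons with a day 0 group, the number of members called carries the same limit. RNA came from 32 libraries of the C1 line in 8 groups of 4 biological replicates. C1 cells are mouse embryonic stem cells without endogenous β-catenin, and all groups carry a transgene under doxycycline (dox) control that joins mCherry and a destabilizing domain to β-catenin S33Y, an active mutant, with the protein stabilized by trimethoprim (TMP).

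At day 0, C1 had TMP alone and therefore no induced fusion, while C1M and C1H had dox and TMP and were sorted for middle and high mCherry. The labels place all 3 in pluripotent culture, with FBS and LIF as growth medium, and the study's methods name 2i/L, which holds a MEK inhibitor and the GSK3 inhibitor Chiron, itself an activator of the Wnt pathway. At day 4 of monolayer differentiation in NDiff227, C1T came from the uninduced cells and had TMP, C1MV and C1HV came from the pre-treated C1M and C1H fractions with both inducers withdrawn, and C1MDT and C1HDT came from the same fractions with dox and TMP kept throughout. The model is limited to 1 line, with an overexpressed stabilized form in a knockout background. Ctnnb1, the gene of β-catenin, had 7.81 ± 2.63 counts scaled to library size (CPM, counts per 1e+06 reads; SD, n = 4) in C1, 12.2 ± 3.84 in C1M and 41.1 ± 5.70 in C1H, and at day 4 it had 29.2 ± 4.29 in C1MDT and 30.8 ± 3.75 in C1HDT against 9.74 ± 2.47 in C1T. The rise in C1M over C1 did not pass the test (log2 fold change 0.61 ± 0.248 SE, edgeR quasi-likelihood adjusted p = 0.0553), whereas that in C1H did (2.37 ± 0.206, adjusted p = 6.48e-20).

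A small, changing share of mouse embryonic stem cells passes through a state in which transcripts of the cleavage-stage embryo reappear. Zscan4 genes encode proteins with a SCAN domain and zinc fingers that act on telomeres and genome stability, the Tcstv genes were found in the same embryonic stage and also act on telomeres, Zfp352 encodes a zinc finger protein of the early embryo, and BB287469 belongs to a family of copies related to Eif1a, which encodes a translation initiation factor. Most of these genes lie in clusters of near-identical copies. β-catenin is the transcriptional effector of the canonical Wnt pathway and acts with TCF/LEF factors on DNA.

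Some members share sequence with near-identical copies, which bears on their values below, because only reads with 1 placement were counted. The upstream 250 bases of 4 members are shown to let the near-identity of the Zscan4 copies be read directly beside the separate BB287469 promoter. The sequences are from RefSeq on GRCm38.p6, which held 5 of the 7 members and neither Tcstv gene, and are written 5′ to 3′ on the strand of the gene. They are the windows chr12:87816327-87816576 (plus strand, BB287469), chr7:11005495-11005744 (plus, Zscan4c), chr7:11166149-11166398 (minus, Zscan4d) and chr7:11397665-11397914 (plus, Zscan4f), and capitals mark TATAAA.
BB287469: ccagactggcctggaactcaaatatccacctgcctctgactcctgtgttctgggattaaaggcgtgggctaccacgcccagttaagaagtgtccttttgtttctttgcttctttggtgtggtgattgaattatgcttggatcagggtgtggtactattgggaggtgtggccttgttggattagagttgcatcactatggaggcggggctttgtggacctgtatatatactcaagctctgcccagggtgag
Zscan4c: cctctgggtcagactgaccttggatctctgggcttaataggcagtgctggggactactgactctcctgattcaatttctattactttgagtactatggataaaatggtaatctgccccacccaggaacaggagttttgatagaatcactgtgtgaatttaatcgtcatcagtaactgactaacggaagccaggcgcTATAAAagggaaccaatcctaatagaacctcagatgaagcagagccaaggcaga
Zscan4d: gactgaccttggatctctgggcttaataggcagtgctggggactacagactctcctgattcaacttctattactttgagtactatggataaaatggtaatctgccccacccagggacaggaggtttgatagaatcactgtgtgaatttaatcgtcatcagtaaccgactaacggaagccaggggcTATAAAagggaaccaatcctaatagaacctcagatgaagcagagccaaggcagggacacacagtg
Zscan4f: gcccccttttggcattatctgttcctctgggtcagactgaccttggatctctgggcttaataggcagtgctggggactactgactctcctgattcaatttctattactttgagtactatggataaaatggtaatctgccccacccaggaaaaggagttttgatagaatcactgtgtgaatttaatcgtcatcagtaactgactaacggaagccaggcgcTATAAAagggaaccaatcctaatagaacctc
The Zscan4c and Zscan4f windows differed at 1 of 227 aligned bases, and those of Zscan4c and Zscan4d at 7, an identity of 97.1%. TATAAA, searched on both strands, starts 54, 65 and 31 bases before the RefSeq start in Zscan4c, Zscan4d and Zscan4f, where the start of Zscan4d lies inside the gene as GENCODE annotates it, and it is in 12.4% of 32851 promoter windows of this length. The TCF/LEF core CTTTGAT, also searched on both strands, is in 3.21% of all windows and in none of the 5 of the members, which says only that these letters are not in these windows.

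All 7 genes are annotated as protein-coding and none overlaps another gene. BB287469 lies at chr12:87816577-87820676, Zscan4c at chr7:11005745-11010547, Zscan4d at chr7:11161374-11166159, Zscan4f at chr7:11397915-11402318, Tcstv1 at chr13:119893388-119894785, Tcstv3 at chr13:120316878-120318178 and Zfp352 at chr4:90218820-90225702 (GENCODE, GRCm38). The transcript of BB287469 differed from that of its copy Gm4027 at 3 of 1850 aligned bases, and their longest reading frames at 0 of 144 residues. Its reading frame differed from that of Eif1ax, the X-linked gene of the factor, at 14 of 144 residues. Zscan4c and Zscan4f differed at 7 of 1806 bases and Zscan4c and Zscan4d at 57 of 2270, while Tcstv1 and Tcstv3 were 92.2% identical.

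To see how much of each gene unique counting can reach, every stretch of 100 bases, the read length, was compared with all other annotated transcripts. QuantSeq reads lie near the 3′ end of a transcript. In the last 500 bases, 0% of the windows of BB287469 and of Zscan4f occurred in no other gene, against 65.8% in Zscan4c, 81.3% in Zscan4d and 100.0% in Tcstv1, Tcstv3 and Zfp352. The nearest unique window lies 752 bases from the end in BB287469 and 912 bases in Zscan4f. Among 15269 tested genes with a transcript, 88.2% had only unique windows there and 2.77% had none. Counts of BB287469 and Zscan4f are therefore those of the reads that fell outside the shared 3′ end, Zscan4c and Zscan4d can lose part of theirs to copies, and no level is compared between genes. No genome sequence entered this check, so unannotated copies are not covered.

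**Figure D1:**
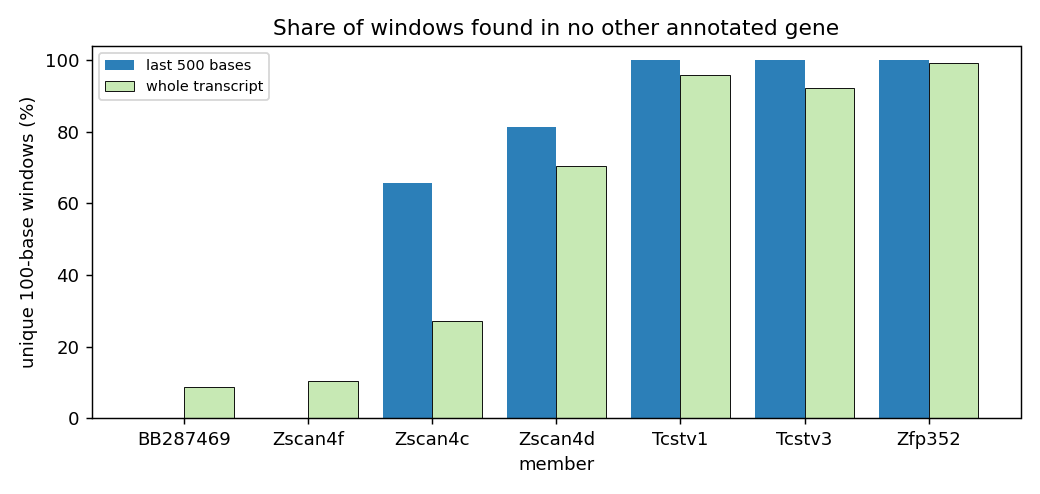
Share of 100-base windows (%, y axis) that occur in no other annotated gene, for the last 500 bases (dark bars) and the whole transcript (light bars) of each member (x axis). BB287469 and Zscan4f have 0% in the last 500 bases, and Tcstv1, Tcstv3 and Zfp352 have 100.0%.

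Libraries held between 1366951 and 3648787 reads on genes (median 1808881 in C1HV to 2837707.5 in C1MDT), so that 3 counts equalled 0.822 to 2.19 CPM. Alignment records marked as not unique made up 49.4% to 51.3% in C1, 53.1% to 54.1% in C1M, 50.7% to 51.3% in C1H and 52.7% to 56.4% at day 4. Records outside genes made up 9.78% to 10.4% in C1, 9.03% to 9.91% in C1M, 10.8% to 11.2% in C1H and 4.72% to 6.83% at day 4, and the part of both kinds of records in the member values was not tested. The summed level of 8 pluripotency markers was 6165 to 6388 CPM in C1, 4600 to 4894 in C1M, 4699 to 5007 in C1H and 538 to 1546 in day 4 libraries, and of the 8, 6 were lower and Nanog higher in C1M than in C1 and 5 were lower in C1H, where 26.3% and 25.9% of all genes were called. The 6 primitive endoderm markers summed to 10.5 to 21.0 CPM in C1, 22.7 to 39.3 in C1M and 26.6 to 32.8 in C1H, with no overlap of C1 with the induced groups. Of these 6, 2 were called higher in C1M, and in C1H edgeR called 0 and DESeq2 called 1. Of the other markers at day 0, the 6 of fibroblasts summed to 13.0 to 17.3 CPM in C1, up to 30.1 in C1M and 26.9 to 32.7 in C1H, with no overlap of C1 with the other 2 groups, Thy1 at 1 to 2 counts per library in C1 and 24 to 32 in C1H, Col1a1 at 9 to 13 and 5 to 7, and Postn at 0 throughout day 0. Of 4 tested fibroblast markers 2 were higher in C1M, and 2 were higher and 1 lower in C1H. The 5 trophoblast markers summed to 49.8 to 60.4 CPM in C1 and 36.8 to 45.7 in C1M, with no overlap, and to a median of 46.1 in C1H, whose highest library reached into the range of C1. Of 4 tested trophoblast markers 1 was higher and 1 lower in C1M, and 0 were called in C1H. The 4 markers of the post-implantation epiblast summed to 91.0 to 131 CPM in C1, 123 to 144 in C1M and 98.8 to 122 in C1H, and 2 were higher and 1 lower in C1M than in C1 and 1 higher and 1 lower in C1H. The part of these markers in the day 0 values of the members was not tested.

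At day 0 all 7 members had few or no counts in C1, and 5 of them, BB287469, Zscan4c, Zscan4d, Tcstv3 and Zfp352, had more in every library of the induced fractions. BB287469 had 1, 0, 0 and 1 counts in the 4 C1 libraries, 21, 24, 12 and 14 in C1M and 39, 32, 41 and 34 in C1H. Its level was 0.225 ± 0.261 CPM in C1, 6.77 ± 2.36 in C1M and 13.4 ± 1.68 in C1H (SD, n = 4), and no library of one group reached into the range of another. The ratio of summed counts to C1 was 27.2 in C1M (95% exact counting interval 7.25 to 229) and 54.6 in C1H (14.8 to 455). These intervals cover counting error only, and the wide upper end comes with the 2 counts in C1. In bulk RNA a larger share of cells in the state and more RNA per cell cannot be told apart.

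The Zscan4 copies had the same order of the 3 groups. Zscan4c had 0, 1, 2 and 0 counts in C1, 5, 3, 5 and 6 in C1M and 24, 18, 15 and 15 in C1H. Zscan4d had 1, 0, 1 and 1 counts in C1, 7, 4, 10 and 8 in C1M and 22, 24, 25 and 20 in C1H. In both, every C1M library was above every C1 library and every C1H library above every C1M library. For Zscan4c the gap between C1M and C1 lies at the floor, with 1.06 CPM on 3 counts against 1.04 CPM on 2 counts. The share of all genes with every C1H library above every C1M library was not determined. Zscan4f had 0 counts in all C1 and C1M libraries and 2 counts in 1 of the C1H libraries, so no fold is given, and 0 counts over the 4 C1 libraries allow up to 0.367 CPM of uniquely placed reads, which sets no limit on the gene because no window in its last 500 bases is unique. Summed over the 3 copies, the level was 0.755 ± 0.537 CPM in C1, 4.56 ± 1.44 in C1M and 15.1 ± 0.493 in C1H, a ratio to C1 of 6.12 (2.62 to 17.5) and 20.6 (9.25 to 56.8).

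Among the Tcstv genes, Tcstv3 had 0, 2, 0 and 5 counts in C1, 12, 16, 15 and 6 in C1M and 15, 28, 19 and 35 in C1H, with C1 below both fractions and an overlap between the fractions. Tcstv1 stayed at 0 to 1 counts in C1, 0 to 2 in C1M and 1 to 4 in C1H, and these ranges overlap. Zfp352 had no count in any C1 library, 1, 4, 2 and 5 in C1M and 9, 7, 8 and 4 in C1H. Against a floor of 3 counts over the C1 group its level was at least 3.06-fold higher in C1M and at least 6.98-fold higher in C1H. In all, 5 of the 7 members had every C1M library above every C1 library, and the same 5 had every C1H library above every C1 library. In C1M the margin was small for Zscan4c, for Tcstv3 (2.47 against 2.40 CPM) and for Zfp352 (1 count against 0). Of the tested genes, 13.7% did so in C1M and 13.5% in C1H, and 26.3% and 25.9% differed from C1 in either direction at an adjusted p under 0.05. Since the choice of members used this contrast, nothing is read from that difference.

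**Figure D2:**
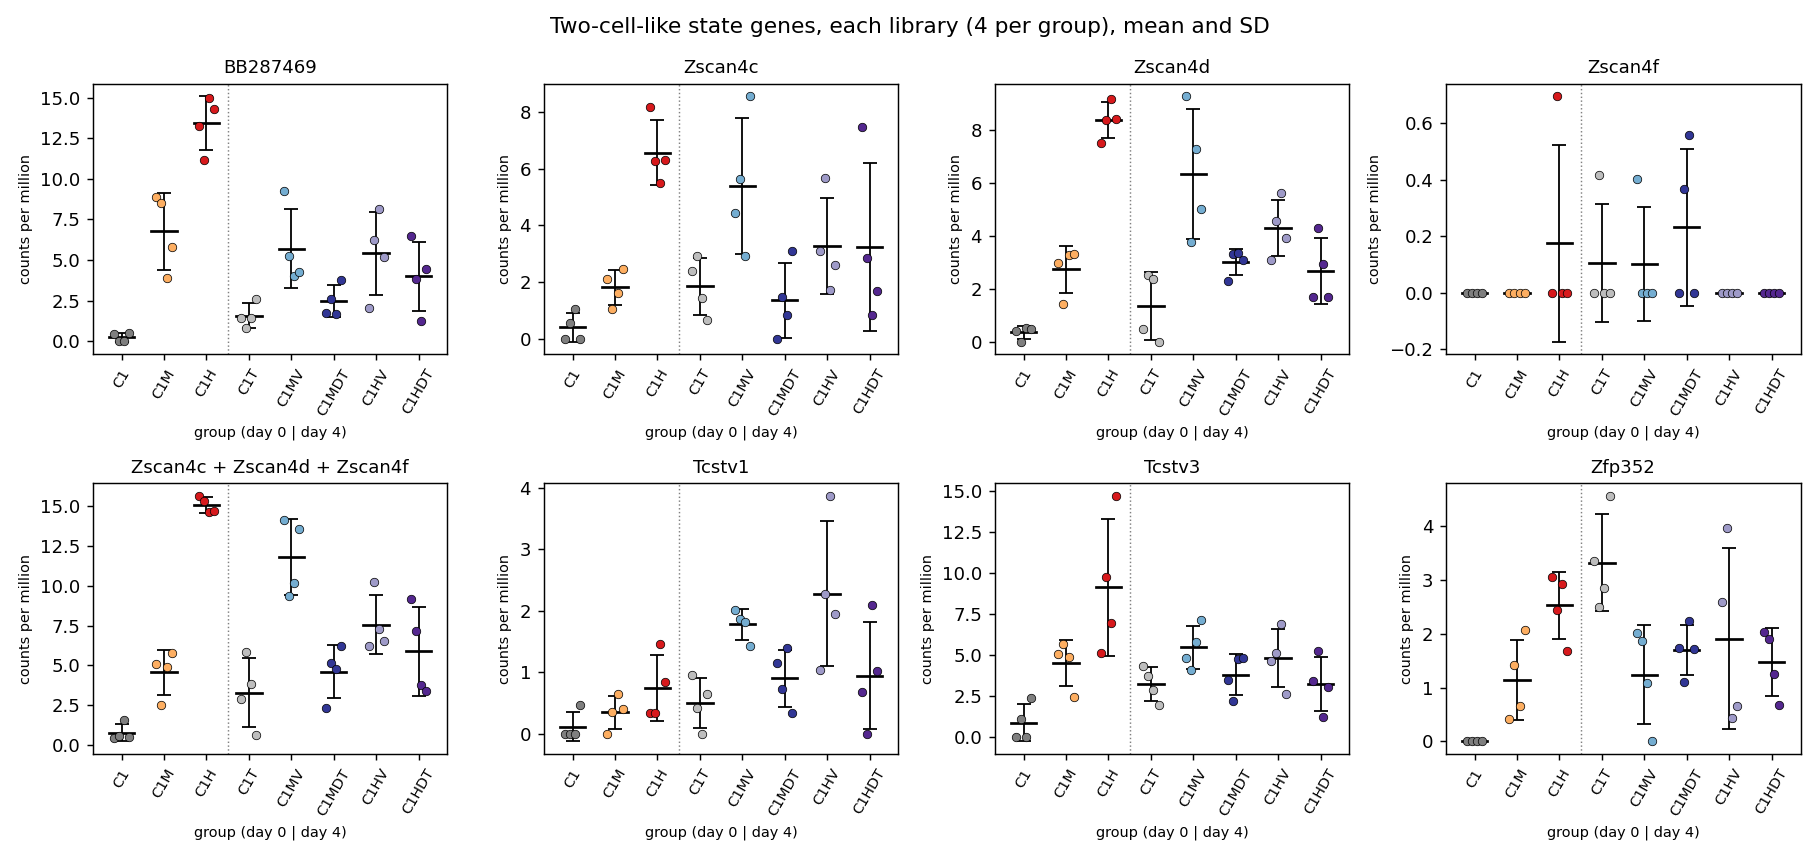
Level in CPM (y axis) of each member and of the sum of the 3 Zscan4 copies in the 8 groups (x axis, day 0 left of the dotted line and day 4 right of it), where points are libraries, bars the mean and whiskers the SD (n = 4). C1H stands highest for BB287469 and the Zscan4 sum, at means of 13.4 and 15.1 CPM, and Zfp352 is at 0 in C1 and at 3.32 CPM in C1T.

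Between the 2 sorted fractions the question is whether the level of the fusion goes with the level of the members. Zscan4c was 1.85 ± 0.450 (log2 fold change, SE) higher in C1H than in C1M (edgeR adjusted p = 0.0099), and Zscan4d was 1.60 ± 0.363 higher (adjusted p = 0.00439). They are 2 of the 5 members tested here, against 1.77% of all genes. The members were chosen with earlier results of these data known, so nothing is read from this count. BB287469 is left out of this count because C1H libraries entered its choice, and its summed counts were 2.01 times those of C1M (1.5 to 2.71). Tcstv3 (0.97 ± 0.332, adjusted p = 0.12), Zfp352 (1.14 ± 0.578, adjusted p = 0.398) and Tcstv1 (0.89 ± 0.919, adjusted p = 0.776) did not pass, though Tcstv3 did in a fit of only these groups (adjusted p = 0.0462). The edgeR call of Zscan4c was lost without C1M replicate 2 or C1H replicate 1 (adjusted p = 0.0642 to 0.0700) and that of Zscan4d without C1M replicate 2 (adjusted p = 0.0582), and DESeq2 gave none of the 5 an adjusted p.

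Eif1a-like copies and other transcripts of the state are described in C1M and C1H against C1 without a test, since these lists were chosen with these results known and hold near-identical copies of BB287469. Of 8 Eif1a-like copies 6 passed the filter on low counts, and all 6 had a higher mean in C1M and in C1H than in C1. With at most 1.09 CPM in C1 on average, they passed mainly through the groups where they were high, so the shared direction of those that passed supports nothing. Their median log2 fold change was 3.67 and 4.36, or 3.09 and 4.10 with Gm2016, which had no count in C1, at its lower bound, against 0.06 and 0.04 over all tested genes. Gm8300, whose last 500 bases are all unique, had 1 to 3 counts per library in C1, 47 to 68 in C1M and 70 to 115 in C1H, a log2 difference of 4.96 ± 0.317 between C1H and C1. That of Gm5662 was 4.58 and that of Gm2022 4.17, and Gm2016 was at least 3.24-fold higher. Gm4027, the copy that differs from BB287469 at 3 bases, had 0 to 2, 6 to 13 and 20 to 28 counts per library in C1, C1M and C1H.

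Of 34 other transcripts listed for this state, 15 passed the filter, and all 15 had a higher mean in C1M and in C1H than in C1, with medians of 2.5 and 3.36, which support nothing, as several of them averaged under 1 CPM in C1 and passed through the groups where they were high. The log2 difference between C1H and C1 was 4.35 for Usp17la and 3.86 for Usp17lc, of a family of deubiquitinating enzymes, and 4.26 for Tmem92. Usp17la went from 1 to 6 counts per library in C1 to 40 to 48 in C1M and 84 to 140 in C1H. Of the other Zscan4 and Tcstv copies 5 of 14 were in the files and 2 were tested, both Zscan4 pseudogenes, and neither passed the test against C1 in edgeR or DESeq2 or had an unadjusted p under 0.05.

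**Figure D3:**
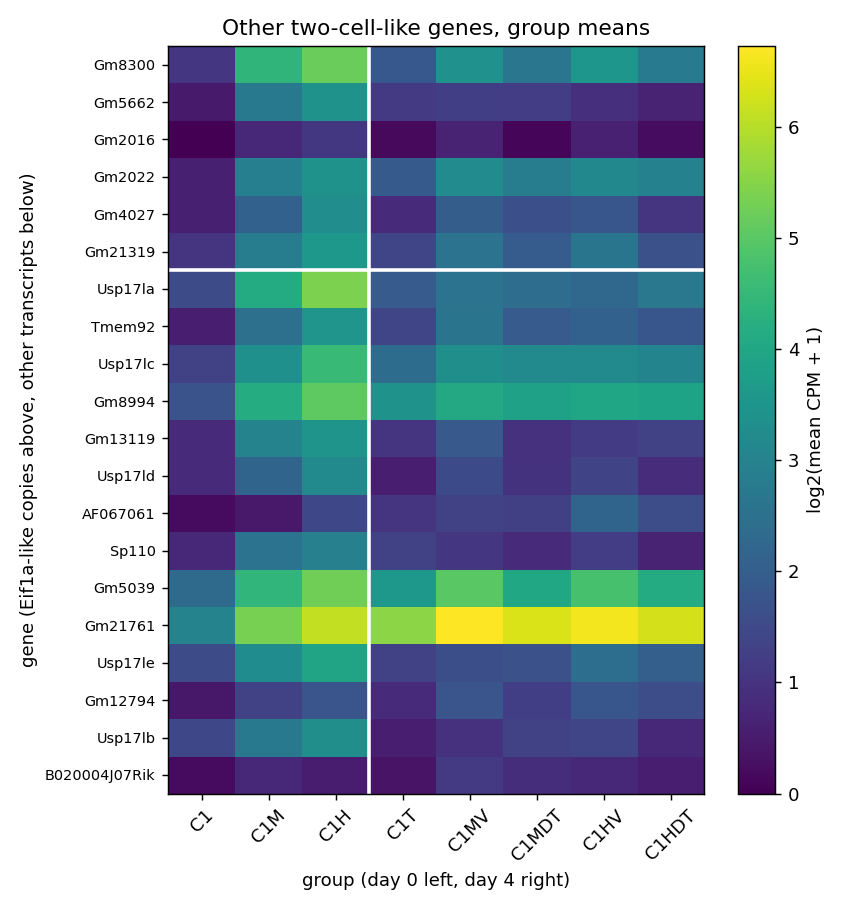
Group means of the tested Eif1a-like copies (above the white line) and 14 of the other transcripts of the state (below it), as log2(mean CPM + 1) on the colour scale, with day 0 groups left of the white line and day 4 groups right of it. All genes shown have a higher mean in C1H than in C1, Usp17la has 16.7 and 40.9 CPM in C1M and C1H, and Gm21761 is brightest in C1MV at 105 CPM.

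The lists of regulators and telomere factors were also chosen with earlier results of these data known, so their calls at day 0 describe these genes and support nothing about the state. Of the listed regulators, the activators did not move together at day 0. Nelfa, which encodes a subunit of the negative elongation factor, rose from 40.4 ± 5.32 CPM in C1 to 67.3 ± 5.33 in C1M and 98.1 ± 6.17 in C1H, by 0.73 ± 0.122 and 1.27 ± 0.117 on the log2 scale (edgeR adjusted p = 3.69e-07 and 2.09e-18). Tbx3 fell in C1H by 0.32 and Zscan10 by 0.58, while Dppa2 and Dppa4, whose proteins activate Dux in this state, did not pass (-0.20 ± 0.107 and 0.14 ± 0.0808, adjusted p = 0.168 and 0.205). Duxf3, the gene of the Dux transcription factor, had 0 counts in all 32 libraries, which allows up to 0.0394 CPM of uniquely placed reads over all of them. In its last 500 bases 62.1% of the windows are unique, so part of its reads could not have been counted and the limit on the gene itself is looser than this value. Among 30 repressors, 13 were lower and 2 higher in C1H than in C1, where 25.9% of all genes were called, with a median of -0.15. The largest decreases were those of Uhrf1, which is needed for maintenance of DNA methylation, by 1.09, Lin28a by 1.00, L3mbtl2 by 0.63 and Atrx by 0.60. Zmym2 rose by 0.30. Of 12 tested telomere factors 2 rose and 2 fell in C1H (3 called in DESeq2), beside the same 25.9% of all genes. Dmc1, a meiotic recombinase, rose by 0.81 and Acd, of the shelterin complex, by 0.39, while Terf1 fell by 0.60 and Dkc1 by 0.51.

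Differentiation of the uninduced cells came with a rise of some members from their low start. Zfp352 had 7, 6, 6 and 7 counts in the C1T libraries after none in C1, at least 8.72-fold higher (edgeR adjusted p = 3.3e-06). Tcstv3 rose by 1.88 ± 0.613 (adjusted p = 0.00664) and Zscan4c by 2.25 ± 0.847 (adjusted p = 0.0202), while Zscan4d (1.85 ± 0.834, adjusted p = 0.0552) and Tcstv1 (1.64 ± 1.32, adjusted p = 0.312) did not pass. Thus 3 of 5 tested members were higher in C1T than in C1, in a comparison where 49.3% of all genes differed. BB287469, not counted because its low C1 values entered its choice, had 3, 2, 3 and 4 counts in C1T, a ratio of 6.03 (1.34 to 55.5). The Zscan4c call was lost without C1 replicate 1, C1 replicate 4 or C1T replicate 2 (adjusted p = 0.0703 to 0.0919), the Tcstv3 call without C1 replicate 1 (adjusted p = 0.0582), and Zscan4d passed without C1T replicate 1 or 4 (adjusted p = 0.0243 to 0.0296).

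From the middle fraction into differentiation without inducers (C1MV vs C1M), both measurable Zscan4 copies rose. Zscan4c had 11, 15, 8 and 12 counts in C1MV, above all C1M libraries in CPM, and rose by 1.48 ± 0.481 (edgeR adjusted p = 0.00754). Zscan4d, with 23, 10, 20 and 7 counts, rose by 1.22 ± 0.386 (adjusted p = 0.00575) and Tcstv1, with 5, 5, 5 and 2, by 2.14 ± 0.813 (adjusted p = 0.0233). These were 3 of 5 tested members, where 45.9% of all genes differed. Tcstv3 and Zfp352 changed by 0.21 ± 0.371 and 0.28 ± 0.660 (adjusted p = 0.668 and 0.761). BB287469 had 23, 14, 11 and 6 counts, and its ratio to C1M was 0.872 (0.601 to 1.26). The Zscan4d call was lost without C1MV replicate 1 (adjusted p = 0.0550) and that of Tcstv1 without C1M replicate 1 (adjusted p = 0.0721). Gm21761 (1.40 ± 0.121, adjusted p = 3.32e-20), Gm5039 (0.55 ± 0.181, adjusted p = 0.00792) and the 2 tested Zscan4 pseudogenes rose too. Of the 15 other transcripts 2 were higher and 5 lower, and of the 6 Eif1a-like copies 2 were lower, shares near or below that over all genes.

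With both inducers kept (C1MDT vs C1M) none of the 5 members passed in edgeR or DESeq2, none had an unadjusted p under 0.05, and 52.4% of all genes differed. The estimates ran from -0.29 ± 0.581 for Zscan4c to 1.18 ± 0.886 for Tcstv1. BB287469 had 3, 7, 6 and 11 counts in C1MDT, below every C1M library in CPM, with a ratio of 0.371 (0.229 to 0.585). The 2 tested Zscan4 pseudogenes were higher here as well, while 7 of the 15 other transcripts and 3 of the 6 Eif1a-like copies were lower and 1 other transcript was higher, shares close to that over all genes. DESeq2 called 1 of the pseudogenes and 7 of the other transcripts in either direction.

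From the high fraction, Zscan4d, Tcstv3 and Zscan4c fell. The members were chosen with earlier results of these data known, and these genes had their highest mean in C1H. Their falls from C1H therefore support nothing about the members. In C1HV vs C1H, Zscan4d fell by 0.93 ± 0.359 (edgeR adjusted p = 0.0242), Tcstv3 by 0.85 ± 0.351 (adjusted p = 0.0378) and Zscan4c by 1.03 ± 0.437 (adjusted p = 0.0434), which makes 3 of 5 members with 47.0% of all genes called. These calls are close to the threshold. DESeq2 called Zscan4d alone (adjusted p = 0.0356, against 0.0549 for Tcstv3 and 0.0828 for Zscan4c). The Zscan4d call was lost without C1H replicate 3 or C1HV replicate 1 or 4 (adjusted p = 0.0519 to 0.0844), that of Tcstv3 without C1H replicate 2 or 4 or C1HV replicate 1, 2 or 4 (0.0586 to 0.248), and that of Zscan4c without C1H replicate 1, 2 or 4 or C1HV replicate 1, 3 or 4 (0.0569 to 0.192). Tcstv1 had 1.60 ± 0.714 in the other direction (adjusted p = 0.0547) and passed without C1H replicate 3 or C1HV replicate 1 (0.0285 to 0.0346) and in a fit of only these groups (0.0483).

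In C1HDT vs C1H, Zscan4d fell by 1.70 ± 0.371 (edgeR adjusted p = 3.48e-05) and Tcstv3 by 1.48 ± 0.357 (adjusted p = 0.000179), and both calls held when any 1 library was left out. Zscan4c fell by 0.97 ± 0.404 (adjusted p = 0.0332), a call lost without C1H replicate 1 or C1HDT replicate 2, 3 or 4 (adjusted p = 0.0659 to 0.165) and in DESeq2 (0.0578). Again 3 of 5 members passed, beside 55.7% of all genes, and these falls from C1H support nothing either. BB287469 fell short of every C1H library in all libraries of both day 4 groups, with ratios of 0.415 (0.287 to 0.589) in C1HV and 0.310 (0.216 to 0.439) in C1HDT. Of the other transcripts, which were listed with their high day 0 levels known, so that their falls from C1H support nothing, Usp17la was lower by 3.32 ± 0.259 in C1HV (adjusted p = 4.28e-24), while Gm21761 rose in C1HV by 0.50 ± 0.116 (adjusted p = 0.000148).

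At day 4 the withdrawn groups are compared with C1T. They differ from it in past induction, in sorting for mCherry, and in having DMSO in place of TMP. These differences cannot be told apart. BB287469 was 1.92 ± 0.472 higher in C1MV (edgeR adjusted p = 0.000521) and 1.86 ± 0.491 higher in C1HV (adjusted p = 0.0015), and both calls held when any 1 library was left out. Its counts were 3, 2, 3 and 4 in C1T, 23, 14, 11 and 6 in C1MV and 4, 11, 19 and 8 in C1HV, so that C1MV lies above C1T in every library and C1HV overlaps with it. Zscan4d was 2.09 ± 0.464 higher in C1MV (adjusted p = 0.000111) and 1.53 ± 0.512 higher in C1HV (adjusted p = 0.0148), the second lost without C1T replicate 1 or 4 or C1HV replicate 3 (0.0580 to 0.0709). Its 1, 6, 5 and 0 counts in C1T stand below all libraries of both withdrawn groups in CPM. Zscan4c was higher in C1MV by 1.35 ± 0.502 (adjusted p = 0.0295), lost without C1T replicate 3 or 4 or C1MV replicate 2 or 4 (0.0689 to 0.102), and did not pass in C1HV (0.70 ± 0.560, adjusted p = 0.393). The sum of the 3 copies was 11.8 ± 2.38 CPM in C1MV and 7.56 ± 1.84 in C1HV against 3.29 ± 2.15 in C1T.

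Tcstv1 was higher in C1HV by 2.13 ± 0.819 (edgeR adjusted p = 0.0386), on 2, 4, 9 and 3 counts against 2, 1, 0 and 1 in C1T. That call was lost in DESeq2 (adjusted p = 0.0591), with the replicate number as a block (0.0573), without the filter on low counts (0.0563), and without C1T replicate 2 or 3 or C1HV replicate 2 or 3 (0.0545 to 0.183). In C1MV it had 1.77 ± 0.832 (adjusted p = 0.0979). Tcstv3 did not pass in either group, with 0.67 ± 0.416 and 0.58 ± 0.434. Zfp352 went the other way without passing, with 5, 5, 3 and 0 counts in C1MV and 5, 7, 1 and 1 in C1HV after 7, 6, 6 and 7 in C1T and log2 differences of -1.20 ± 0.579 and -0.78 ± 0.574 (adjusted p = 0.109 and 0.345). In each withdrawn group 3 of 6 members were called, with 30.2% of all genes called in C1MV and 28% in C1HV.

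With inducers kept until day 4, fewer members passed against C1T. BB287469 was 1.44 ± 0.494 higher in C1HDT (edgeR adjusted p = 0.0156), on 19, 8, 3 and 13 counts, and lost this call without C1T replicate 2 or C1HDT replicate 1 (adjusted p = 0.0722 to 0.122). It was the 1 member of 6 called there, where 33.5% of all genes were. In C1MDT 0 of 6 members passed in edgeR and in DESeq2, 1 had an unadjusted p under 0.05, and 33.4% of all genes were called. Zscan4d came nearest (1.05 ± 0.515, adjusted p = 0.108) and passed without C1T replicate 2 (adjusted p = 0.0474).

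**Figure D4:**
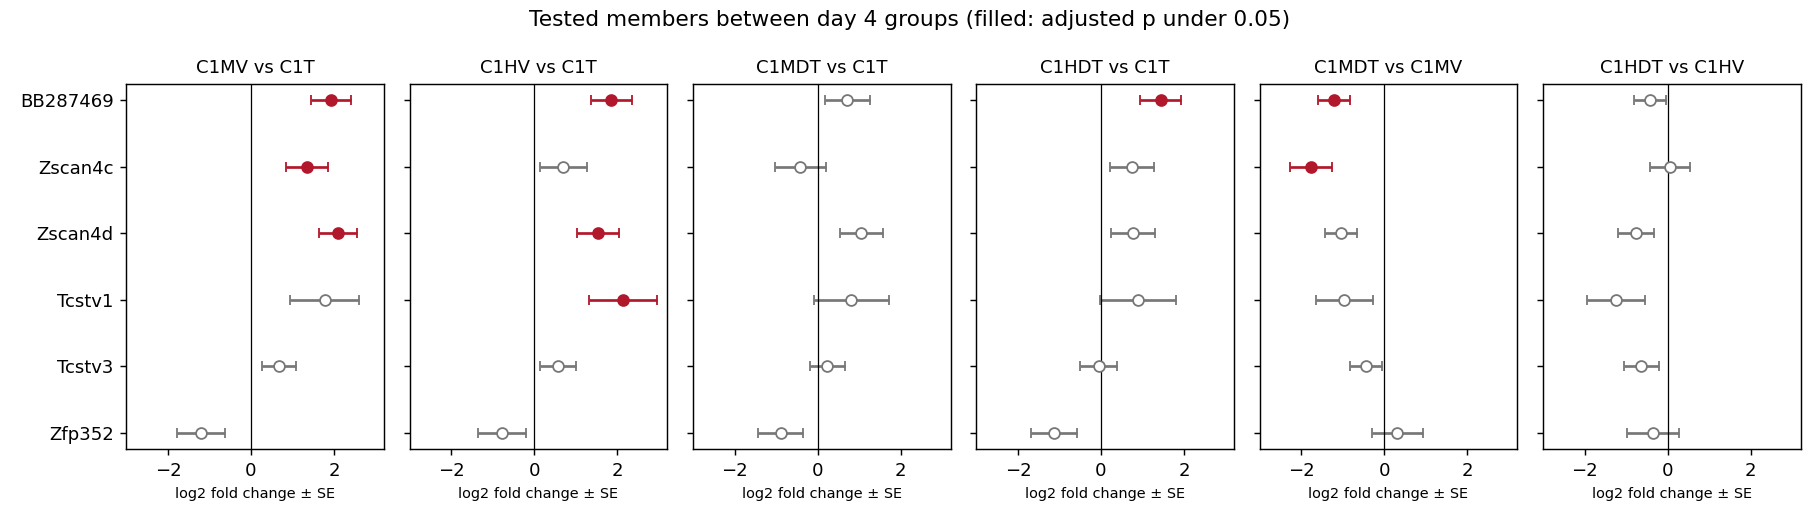
Log2 fold change with SE (x axis) of the 6 tested members (y axis) in 6 comparisons between day 4 groups, where filled points have an adjusted p under 0.05. Members reach 2.09 and 2.13 in the withdrawn groups against C1T, BB287469 and Zscan4c are at -1.21 and -1.76 in C1MDT vs C1MV, and Zfp352 lies left of 0 in all 4 comparisons with C1T without passing.

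Kept and withdrawn inducers were then compared directly within each fraction. In C1MDT vs C1MV, Zscan4c fell by 1.76 ± 0.497 (edgeR adjusted p = 0.00754), from 11, 15, 8 and 12 counts to 0, 4, 3 and 9, and BB287469 fell by 1.21 ± 0.396 (adjusted p = 0.026), with all C1MDT libraries below all C1MV libraries in CPM. Zscan4d was at -1.04 ± 0.376 (adjusted p = 0.0504), just outside the threshold. So 2 of 6 members were called, with 12.6% of all genes. The Zscan4c call was lost without C1MDT replicate 3 (adjusted p = 0.0534) and that of BB287469 without C1MV replicate 1 or C1MDT replicate 1 or 3 (0.0610 to 0.239), while Zscan4d passed without C1MV replicate 2 or 4 (0.0214 to 0.0497), with RLE size factors (0.0493), with library size only (0.0460) and in a fit of only these groups (0.0486).

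In C1HDT vs C1HV 0 of 6 members passed in edgeR, none had an unadjusted p under 0.05, DESeq2 called none and gave 3 of them no adjusted p, and 16.0% of all genes were called. The estimates were between -1.24 ± 0.690 for Tcstv1 and 0.06 ± 0.482 for Zscan4c. The difference between the fractions was itself tested and did not pass for any of the 6 members in edgeR (for Zscan4c 1.82 ± 0.697 on the log2 scale, adjusted p = 0.419). Among the relatives, 1 of 6 Eif1a-like copies and 2 of 15 other transcripts were lower in C1MDT than in C1MV, and 2 of 6 and 1 of 15 were lower in C1HDT than in C1HV, with none higher. Both lists were chosen with earlier results known, so these tallies describe the genes and support nothing about the state. Gm5039 fell in both fractions, by 1.00 ± 0.190 and 0.66 ± 0.198 (adjusted p = 2.35e-05 and 0.0112), and so did Gm8300, by 0.83 ± 0.271 and 0.89 ± 0.274 (0.0251 and 0.0139).

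Groups from the middle and the high fraction were also compared at day 4. In C1HV vs C1MV 0 of 6 members passed in edgeR or DESeq2 and none had an unadjusted p under 0.05, with 0.00654% of all genes called, and in C1HDT vs C1MDT 0 of 6 passed, with 1 at an unadjusted p under 0.05 and 0.0% of all genes (814 at an unadjusted p under 0.05, 0 in DESeq2). The SEs of 0.367 to 0.758 leave room for differences: the ratio of Zscan4c in C1HDT to C1MDT was 2.31 (1.24 to 4.47), in which C1HDT replicate 1 alone held 22 of the 35 counts.

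Relatives of the members were compared with C1T too, where 28% (C1HV), 30.2% (C1MV), 33.4% (C1MDT) and 33.5% (C1HDT) of all genes were called. Those shares hold both directions, and of 15280 tested genes 2091 were higher for C1HV and 2341 for C1MV. The lists were chosen with earlier results known. Eif1a-like copies include near-identical copies of BB287469 and passed the filter mainly through groups where they were high. List tallies and medians here therefore describe these genes and support nothing about the state. Against C1T, 4 of 6 Eif1a-like copies were higher in C1MV and 3 in C1HV, with medians of 1.74 and 1.64 against 0.01 and 0.0050 over all genes, and Gm8300 rose by 1.79 ± 0.333 and 1.95 ± 0.336 (edgeR adjusted p = 3.56e-06 and 6.33e-07). Gm21319 and Gm2022 rose in C1HV by 1.65 and 1.52. In C1MDT and C1HDT 2 of the 6 were higher. Of the other transcripts 5 of 15 were higher in each withdrawn group, 4 in C1HDT and 2 in C1MDT, while DESeq2 called 4 in C1HV and 3 in C1HDT. Those in C1HV by edgeR were AF067061 (1.64, adjusted p = 0.0446), Usp17le (1.46), Gm5039 (1.21), Usp17lc (1.06) and Gm21761 (1.05). Of the activators, Zscan10, Dppa2 and Dppa4 were lower in C1HV than in C1T by 1.53, 1.40 and 0.58 on the log2 scale and Tbx3 was higher by 0.85. Of the repressors 8 of 30 were lower and 3 higher, with Ehmt1 and Trim28, both of repressive chromatin, lower by 0.64 and 0.60, Uhrf1 lower by 0.38 and Zfp42 higher by 0.55. Of the telomere factors 3 were higher and 3 lower, with Acd and Terf2 up by 0.69 and 0.62 and Dkc1 and Rtel1 down by 0.48 and 0.44.

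Markers of cell identity moved beside these values, and their part in them was not tested. The 8 pluripotency markers summed to 823 to 986 CPM in C1T libraries, 1234 to 1546 in C1MV, 1158 to 1438 in C1HV, 582 to 696 in C1MDT and 538 to 728 in C1HDT, and 7 of 8 were higher in C1HV than in C1T. The 6 primitive endoderm markers summed to 9.79 to 22.9 CPM in C1T, 233 to 378 in C1MV, 325 to 364 in C1HV, 532 to 650 in C1MDT and 523 to 641 in C1HDT, and all 6 were higher in each of these 4 groups than in C1T. The 4 markers of the post-implantation epiblast summed to 1086 to 1376 CPM in C1T, 592 to 673 in C1MV, 638 to 682 in C1HV, 925 to 1063 in C1MDT and 963 to 1094 in C1HDT, and the 5 of trophoblast to 11.4 to 26.2 CPM over all day 4 libraries. The 6 fibroblast markers summed to 5.83 to 11.0 CPM in C1T, 10.7 to 17.4 in C1MV, 11.9 to 18.5 in C1HV, 5.30 to 12.2 in C1MDT and 7.64 to 16.7 in C1HDT, and 2 of 4 tested were higher in C1MV and in C1HV than in C1T. In C1MV DESeq2 called 1 of them.

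Ordered by their mean level, BB287469 ran from C1H and C1M through C1MV, C1HV, C1HDT, C1MDT and C1T to C1. The libraries of neighbouring groups overlapped except between C1H and C1M and between C1T and C1. The Zscan4 sum ran from C1H through C1MV, C1HV, C1HDT, C1MDT, C1M and C1T to C1, with a gap between the libraries of C1H and C1MV alone. Tcstv3 had C1H, C1MV and C1HV first and C1 last, with overlap between all neighbours, and Tcstv1 had C1HV and C1MV first, also with overlap throughout. Zfp352 stood apart with C1T first, at 3.32 ± 0.903 CPM, then C1H at 2.53 ± 0.626, and a gap between C1M and C1 alone.

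The genes whose pattern over the 8 group means of log2 CPM was most like that of BB287469, among 12747 genes, were Zfp560 (Pearson r = 0.986), Gm46404 (0.983), Gm8332 (0.980), Lmx1a (0.979) and Gm8300 (0.977). Over the 32 single libraries Gm8300 and Gm8332 were at rank 1 and 2 (r = 0.906 and 0.888), Zfp560 at rank 12 (0.824), and Lmx1a and Gm46404 at rank 57 and 125. For the Zscan4 sum they were Fosl2 (r = 0.995), Gm5039 (0.974), Trim52 (0.965), Slco3a1 (0.954) and Lgals4 (0.954). Over single libraries Gm5039 was at rank 1 (r = 0.874), Lgals4 at 49 (0.706), Trim52 at 82 (0.654), Slco3a1 at 363 (0.516) and Fosl2 at 666 (0.453). These values describe likeness over points that share libraries and depth, with 8 points in the first case.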

How the data were processed

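RNA of 32 cultures was sequenced as single-end QuantSeq 3′ libraries. After bbduk trimming and STAR alignment (mm10), the authors ran htseq-count on reads with 1 placement. The deposited values are raw counts of reads for each Ensembl gene. The strand setting of the counting is not given in the sources used here. Reads of near-identical copies are dropped by this counting, which lowers the multicopy members. Labels and paper name different media for the stem cells (FBS with LIF, and 2i/L).

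Counts were scaled with TMM factors and tested by quasi-likelihood in a single fit of the 8 groups (edgeR 4.0.16, robust), over the 15280 genes that reached 1 CPM in 4 or more libraries, with Benjamini-Hochberg adjustment over these genes and a threshold of 0.05. Totals of 1366951 to 3648787 reads make 3 counts equal to 0.822 to 2.19 CPM, and counts under this cannot be told from 0 in a library. Log2 CPM for likeness used a prior count of 2. Ratios of summed counts carry exact 95% intervals, and 3 counts over a group served as floor. Steps were tested on simulated data. BB287469 is counted as called between day 4 groups alone, since the day 0 groups chose it. The members and the lists of related genes were chosen with earlier results of these data known. Genes named are all members, the 5 most like BB287469 and the Zscan4 sum, and from each list up to 4 genes past the threshold with the largest change in C1H vs C1 and C1HV vs C1T; Gm4027, Gm5039, Gm8300, Gm21761, Nelfa, Usp17la, Zmym2, Nanog and Postn are also named for other comparisons after their values were seen. Values of 2 list genes are not reported here, though the counts over their lists include them. Alternatives were RLE size factors, library size only, DESeq2 1.42.0, both filters on low counts, a replicate block, fits of 2 groups and each library left out.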

Additional observations from a re-analysis of the deposited data

Results flagged for a closer look

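In 4 of 51 checked sets of 4 libraries with any count, 1 library stood apart from the other 3, each time as the only library with a count. With the other 3 tied at 0 such a set always stands apart, so the usual chance rate of about 1 in 20 sets does not apply. These were Zscan4f in C1H (0.697 CPM), C1T (0.416) and C1MV (0.403), and Tcstv1 in C1 (0.479), on 2, 1, 1 and 1 counts.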

How the results depend on the processing

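No member reversed its direction where it was called, in 1333 comparisons of a member's log2 change with its value under an alternative. Of these, 1267 kept their side of the threshold or, where untested, moved by less than a margin set from the SE of the change. Another 50 lost a call, 12 gained one and 4 untested ones moved by more. Among the 1267 were 21 in which the sign changed and neither setting gave a call. The number of members called stayed within 1.5 times under RLE size factors, library size only, no filter on low counts and a fit of only the groups compared. With DESeq2 it was 1 in place of 3 in C1HV vs C1H, and DESeq2 gave no adjusted p in 10 tests of members. With at least 1 CPM in all libraries no member was left to test. With 1 library left out the members called ran from 0 to 2 in C1H vs C1M, 1 to 4 in C1T vs C1, 0 to 3 in C1HV vs C1H, 0 to 1 in C1MDT vs C1T, 1 to 3 in C1HV vs C1T, 0 to 1 in C1HDT vs C1T and 0 to 3 in C1MDT vs C1MV. The genes called in C1H vs C1M were 601 in a fit of only these groups and 118 to 238 with 1 library left out, against 271. In C1HV vs C1MV they were 3 without the filter, 0 in the fit of these groups and 0 to 8 with 1 library left out, against 1, and in C1HDT vs C1MDT 1 in the fit of these groups. The cause was not tested.

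Library size only moved the Zscan4 sum in C1H to 15.6 CPM. It shifted the median change of all genes to 0.12 in C1M vs C1 and in C1H vs C1 and to -0.14 in C1HDT vs C1H. It moved the share of calls that were higher from 54.3% to 64.6% in C1M vs C1, from 53.3% to 66.5% in C1H vs C1, from 48.9% to 59.4% in C1HV vs C1T and from 56.9% to 45.2% in C1HDT vs C1HV. Deviations from the group mean correlated at -0.0016 on average between libraries of equal replicate number and at 0.00055 between others, so numbers were not taken as pairs. The replicate block left the number of members called as it was in 13 of 14 comparisons and gave 2 in place of 3 in C1HV vs C1T. Counts over the lists stayed within 1.5 times in 4969 of 5280 cases. List counts are those of edgeR unless DESeq2 is named, and DESeq2 called fewer list genes in several comparisons. Depth limits the members: 3 counts equalled 0.822 to 2.19 CPM in a library.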
